A study of Mus musculus with 6 samples.

Results

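The genes described here are 8 that carry peptides to the cell surface on major histocompatibility complex (MHC) class I molecules: B2m, H2-K1, H2-D1, Tap1, Tap2, Tapbp, Psmb8 and Psmb9. They were chosen by name as members of this pathway, all 8 had a row in each count table, and they stand among 23284 gene symbols. Class I molecules show fragments of a cell's own proteins to T cells. Immunoproteasome subunits cut the proteins, the TAP transporter moves the peptides into the endoplasmic reticulum, tapasin helps to load them, and a heavy chain paired with beta-2-microglobulin takes them to the surface. Red cell precursors are known to lose class I molecules as they mature, and interferons raise the pathway in most cell types.

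Polyadenylated RNA was sequenced from nucleated mouse red cell precursors (erythroblasts) at stage E10.5 of embryonic life, sorted as live cells with the erythroid surface antigen Ter119 and the transferrin receptor CD71. All libraries were of strain C57BL/6. The 3 null libraries had genotype SETD8fl/fl EpoR Cre, that is, floxed Setd8 alleles with Cre driven from the locus of the erythropoietin receptor, which is active in erythroid cells. Control replicates 1 and 3 had genotype Setd8 +/+ EpoRCre, with Cre and no floxed allele, and control replicate 2 had Setd8 fl/fl EpoR WT, with floxed alleles and no Cre. Setd8 encodes the enzyme that adds 1 methyl group to lysine 20 of histone H4. The sample labels give fetal liver as the tissue and the series' design text gives fetal blood. The question put to the members is how their transcripts differed between null and control cells, within the libraries whose titles end in a letter (control replicate 3, null replicates 2 and 3: the lettered set) and within those whose titles do not (control replicates 1 and 2, null replicate 1: the unlettered set).

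Depth ran from 7756940 to 21434719 assigned reads per library, lowest in control replicate 1. The sets differed at 3001 of 10512 tested genes with group in the model, so the set was a term of the test (set-adjusted below), and the same test with group alone stands beside it. Setd8 reads remained in every library. Scaled to counts per 1000000 (CPM), Setd8 stood at 73.9 and 74.8 in the unlettered controls against 48.9 in the null library, and at 203.5 in the lettered control against 100.3 and 96.3 in the null libraries (set-adjusted log2 ratio -0.83, SE 0.17, edgeR adjusted p = 0.00911; group alone, 0.702). Adjusted p-values throughout are Benjamini-Hochberg values over all tested genes. Unless said otherwise, values are listed in the order of replicates 1, 2 and 3 of a group. Of 16 erythroid markers 12 were tested, among them Alas2, Gata1 and Klf1 with reads in all libraries. Set-adjusted, 4 were lower and 0 higher in null cells, where 4.16% of all tested genes were lower and 8.65% higher. With group alone 0 were lower. The 4 were Hba-x, Spna1, Epor and Tfrc. Outside these 16 markers the globin row Beta-s was higher in null cells, at 190, 160 and 322 CPM in controls and 1731, 728 and 1297 in null cells. Its set-adjusted edgeR adjusted p was 0.0108, and 0.0608 with group alone. Tfrc, which encodes CD71, had a set-adjusted log2 ratio of -0.92 (SE 0.16, edgeR adjusted p = 0.00363, and 0.184 with group alone). Y-linked transcripts were near 0 in control replicates 2 and 3 and present in the other 4 libraries.

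Promoter windows of B2m, H2-K1, H2-D1 and Tap1 are shown, since these genes carry the results and 3 of the windows hold class I regulatory motifs. Each is 300 bases from RefSeq (GRCm38.p6), from 250 bases before the annotated start to 50 after it, on the gene's strand. The counts were made on mm9, and the windows were matched by symbol. Motifs were searched on both strands. Capitals mark, in B2m, the core of an interferon response element (GAAA, any 2 bases, GAAA) and, in H2-K1 and H2-D1, the palindrome that NF-kB proteins bind in class I promoters, whose letters are the capitals themselves.
B2m, chr2:122147437-122147736, plus strand: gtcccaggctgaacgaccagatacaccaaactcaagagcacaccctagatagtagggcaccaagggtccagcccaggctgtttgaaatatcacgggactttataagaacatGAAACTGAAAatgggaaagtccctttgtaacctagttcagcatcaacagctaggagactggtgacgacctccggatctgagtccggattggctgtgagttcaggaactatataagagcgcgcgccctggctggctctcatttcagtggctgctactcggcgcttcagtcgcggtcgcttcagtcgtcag
H2-K1, chr17:34000298-34000597, minus strand: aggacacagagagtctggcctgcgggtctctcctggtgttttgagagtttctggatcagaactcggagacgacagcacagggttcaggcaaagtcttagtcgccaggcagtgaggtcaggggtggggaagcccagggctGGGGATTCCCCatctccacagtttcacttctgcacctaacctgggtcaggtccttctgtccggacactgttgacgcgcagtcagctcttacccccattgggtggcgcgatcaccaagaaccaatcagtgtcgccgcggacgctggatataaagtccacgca
H2-D1, chr17:35262844-35263143, plus strand: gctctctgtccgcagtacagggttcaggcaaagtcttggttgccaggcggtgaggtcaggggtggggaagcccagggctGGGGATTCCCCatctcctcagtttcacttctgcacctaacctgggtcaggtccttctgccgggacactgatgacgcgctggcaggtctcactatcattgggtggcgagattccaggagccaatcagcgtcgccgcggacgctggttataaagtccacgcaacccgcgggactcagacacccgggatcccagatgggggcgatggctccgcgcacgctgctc
Tap1, chr17:34187306-34187605, plus strand: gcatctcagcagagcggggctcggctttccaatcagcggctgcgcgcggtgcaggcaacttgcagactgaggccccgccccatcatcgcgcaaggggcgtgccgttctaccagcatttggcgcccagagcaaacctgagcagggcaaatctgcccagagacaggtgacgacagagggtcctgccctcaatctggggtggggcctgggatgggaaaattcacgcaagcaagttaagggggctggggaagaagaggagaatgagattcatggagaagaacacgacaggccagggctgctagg

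The interferon element letters lay at -139 to -130 in the B2m window, counted from 0 at the start, and in no other member's window. Such letters occurred in 3.44% of 32851 windows of this length. Only these exact letters were sought, so a window without them may still hold an interferon element spelled otherwise. The palindrome lay at -111 to -101 in the printed H2-K1 window and at -171 to -161 in the H2-D1 window, and in 0.0304% of all windows, 10 in number, among them that of the class I gene H2-Q6. The gamma activated site letters TTCNNNGAA (8.30% of windows) were found at -97 to -89 before Psmb8 alone among the members. CCAAT boxes (37.4% of windows) lay in the windows of B2m, H2-K1, H2-D1, Tap1, Psmb9 and Tapbp. Of the p53 binding motif only the repeat unit was sought, not the full motif. This unit lay in 8.36% of windows and in none of the members'. A match is a run of letters, and binding was not measured. RefSeq places Psmb9, Tap1, Psmb8 and Tap2 next to each other on chromosome 17, in that order, and the windows of Tap1 and Psmb9, which face away from each other, share 275 bases. Windows were found for 7 of the 8 members; Tap2 was not among them.

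**Figure D1:**
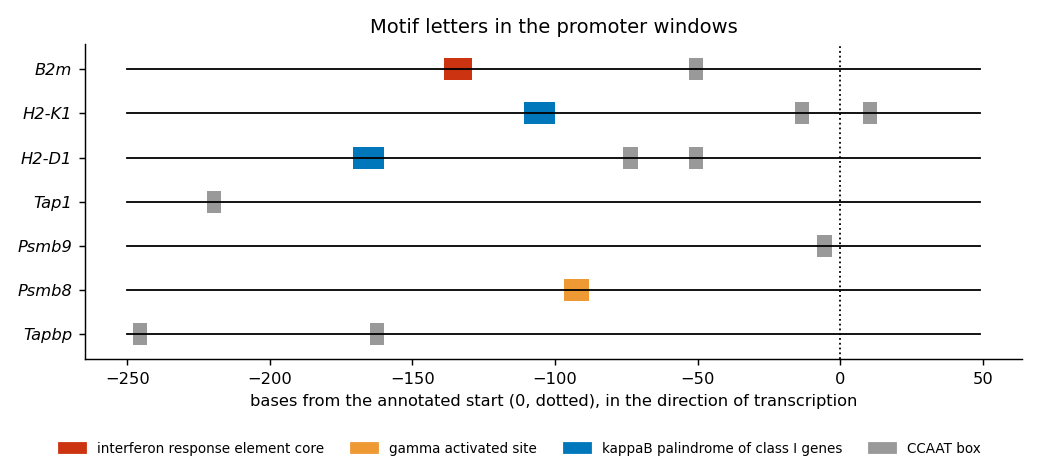
Positions of motif letters in the promoter windows of 7 members, in bases from the annotated start (0, dotted line), read in the direction of transcription; for H2-K1 the printed window is drawn. The interferon element core is in the B2m window at -139 and the palindrome in those of H2-K1 at -111 and H2-D1 at -171.

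Class I transcripts were low in control erythroblasts and higher in the null libraries. Set-adjusted, B2m, both heavy chains and both TAP subunits rose, 5 of the 6 members that could be tested, against 8.65% of all tested genes that rose; 0 fell by edgeR, at unadjusted p under 0.05 or by DESeq2, against 4.16% of all tested genes. With group alone 1 of the 6 rose, Tap1, against 1.14% of all genes, and 0 fell (0 at unadjusted p under 0.05), against 0.00951%. Tap1 and Tap2 passed the filter on low counts through the null libraries alone and therefore had to differ, so the share of members called is a description. With a further term for the Y-linked transcripts, which were high in all null libraries and in 1 control, B2m alone passed (adjusted p = 0.0328, edgeR). The median log2 ratio of the 6 was 2.18 set-adjusted, beside 0.044 over all tested genes. That median includes Tap1 and Tap2, and over the 4 members that passed the filter in all controls it was 1.53. Summed over the 8 genes, the level was 53.1, 40.4 and 46.3 CPM among controls and 164.7, 130.4 and 129.9 CPM among null libraries, with no overlap.

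B2m, the light chain shared by all class I molecules, had 169, 449 and 268 reads among the controls and 1725, 749 and 988 among the null libraries. As CPM these were 25.0, 23.9 and 12.5 in controls and 100.8, 38.5 and 51.1 in null cells. Every null library lay above every control, as for 14.9% of all tested genes (9.16% had every null below every control), and null replicate 1 was the highest. B2m rose by a set-adjusted log2 ratio of 1.94 (SE 0.23, edgeR adjusted p = 0.000327). With group alone the ratio was 1.63 (adjusted p = 0.153). B2m was the member that passed with any single library left out, at adjusted p of at most 0.0496.

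The 2 classical heavy chains differed in how they varied. H2-K1 stood at 4.45, 1.81 and 2.93 CPM among the controls and at 17.8, 15.7 and 13.1 CPM among the null libraries, and the groups did not overlap. It rose by a set-adjusted log2 ratio of 2.42 (SE 0.48, adjusted p = 0.00733; group alone, adjusted p = 0.0751; edgeR). Without null replicate 1 it did not pass (adjusted p = 0.201). H2-D1 followed the title sets as well as the genotype. Its level was 5.19 and 7.03 CPM in the unlettered controls and 15.5 in the unlettered null library, and 19.1 CPM in the lettered control and 36.1 in both lettered null libraries. Null replicate 1 therefore lay below control replicate 3, and the groups overlapped. H2-D1 rose set-adjusted (log2 ratio 1.12, SE 0.29, adjusted p = 0.0270), not with group alone (adjusted p = 0.299), and with any single library left out it did not pass (adjusted p up to 0.307). Between the sets, with group in the model, H2-D1 was higher by 1.42 and B2m lower by 1.07 on the log2 scale in the lettered set (adjusted p = 0.00309 and 0.00338, edgeR), while H2-K1 did not pass (adjusted p = 0.805). Class I heavy chains are near-identical in long stretches. In the unlettered libraries, reads without a unique alignment were tallied in a summary line and added to no gene. The lettered libraries carry no such line, and how these reads were counted there is not stated in these sources. The levels of H2-K1, H2-D1 and their relatives, and the split between them, are therefore uncertain.

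The 2 subunits of the peptide transporter were at or near 0 in controls. Tap1 had 0, 0 and 1 reads among the controls and 76, 237 and 109 among the null libraries, or 4.44, 12.2 and 5.63 CPM. The pooled ratio was 355, with a 95% counting interval of 63.3 to 14046.5 that covers counting error only. Tap1 passed in both tests (adjusted p = 0.000978 set-adjusted and 0.0300 with group alone, edgeR). Without null replicate 1, which is the null library of the unlettered set, its set-adjusted p was 0.0726. Tap2 had 0, 0 and 5 reads in the controls and 46, 128 and 38 among the null libraries, or 2.69, 6.57 and 1.96 CPM. It rose set-adjusted (log2 ratio 5.26, SE 1.30, adjusted p = 0.0222), not with group alone (adjusted p = 0.134). It passed in 1 of the 6 fits with a library left out, the one without null replicate 3. Both subunits were highest in null replicate 2, and their log2 CPM values had a Pearson r of 0.978 over the 6 libraries, which share the group difference. This was the highest r of any pair of tested members, and the lowest was 0.292, for H2-D1 and B2m.

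Tapbp, which encodes tapasin, was at 18.4, 7.67 and 11.6 CPM among the controls and at 21.9, 21.4 and 21.1 CPM among the null libraries. Every null library lay above every control, but control replicate 1 came close, and Tapbp did not pass (log2 ratio 0.82, SE 0.37, adjusted p = 0.173 set-adjusted and 0.420 with group alone, edgeR). Its 3 null values lay closer together than those of any other tested member, with an SD of 0.420 CPM.

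The 2 immunoproteasome subunits among the members were almost absent. Psmb9 had no read in any control and 26, 0 and 10 reads among the null libraries, at least 10.09-fold higher over the group against a floor of 3 control reads. Psmb8 had no control read and 0, 0 and 10 reads among the null libraries, at least 2.80-fold higher by the same floor, from null replicate 3 alone. These folds allow for no error in the null reads and no spread among the null libraries. Neither gene passed the filter, and neither was tested. In null replicate 2, the library with most Tap1 reads, both stood at 0. In the GENCODE M21 annotation Tap1 and Psmb9 share 212 exon bases on opposite strands, and the strand setting of the counting is not stated in these sources, so reads there cannot be told apart. Tapbp (682 bases, Gm19412), Tap2 (518, Gm15821 and 25, Gm20496) and Psmb8 (186, Gm20496) have such overlaps too, and B2m, H2-K1 and H2-D1 have none.

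**Figure D2:**
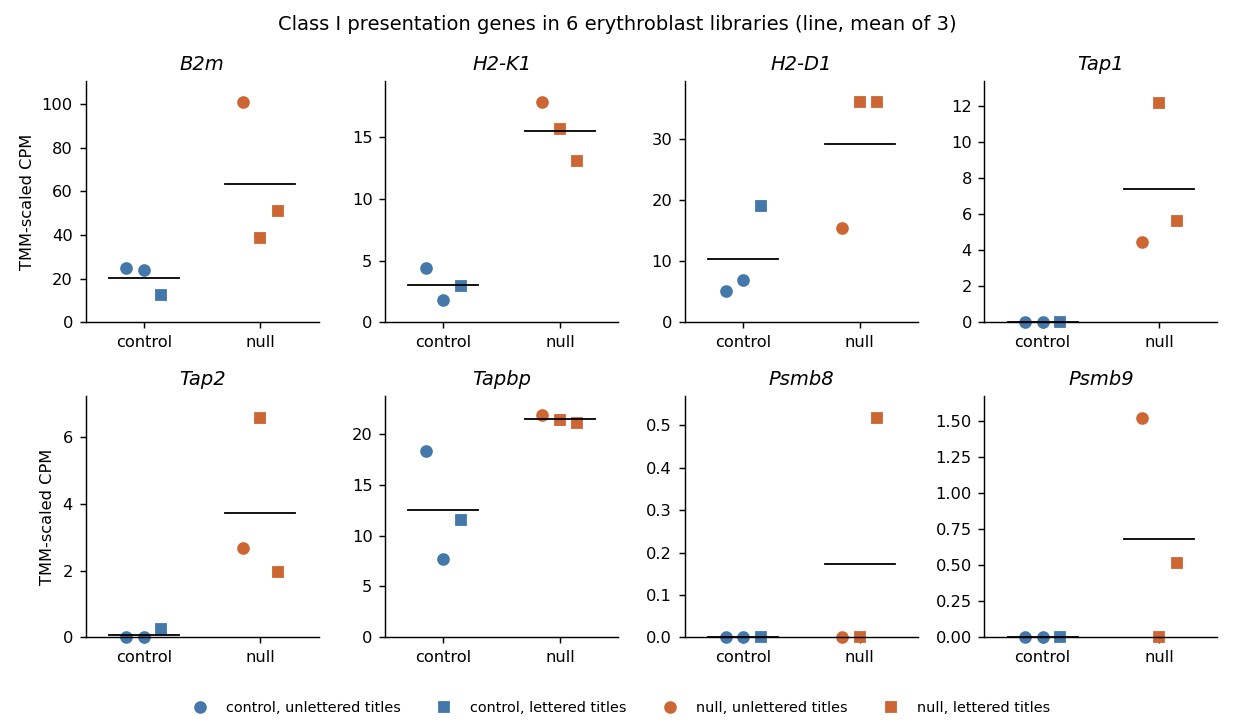
TMM-scaled CPM of each of the 8 genes in the 6 libraries, by group; circles are libraries of the unlettered set, squares of the lettered set, and the line is the mean of 3. B2m, H2-K1, Tap1, Tap2 and Tapbp do not overlap between the groups, H2-D1 does, and Psmb8 and Psmb9 are at 0 in all controls.

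Within each set the null cells were set against their own controls. With a prior count of 2, mean log2 CPM of B2m differed by 2.04 among unlettered and by 1.82 among lettered libraries. In the same order the difference was 2.60 and 2.24 for H2-K1, and 1.34 and 0.92 for H2-D1. It was 0.88 and 0.87 for Tapbp. For Tap1 it was 5.29 and 5.69 and for Tap2 4.59 and 3.42, values that the prior count holds down because the controls were near 0. All 6 tested members were higher in null cells in both sets, as were 36.2% of all tested genes. Tap1 and Tap2 passed the filter through the null libraries alone, so for them this direction was fixed in advance. The unlettered set holds 1 null library and the lettered set 1 control, so these values have no error of their own. The interaction of group and set, with 2 residual degrees of freedom, did not pass for any member (adjusted p from 0.797 for Tap2 to 0.995 for Tapbp, edgeR), which does not show that the sets respond alike. It passed for 1 of 10512 genes (0.00951%), Arhgdib, named after its value was seen (758 at unadjusted p under 0.05).

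**Figure D3:**
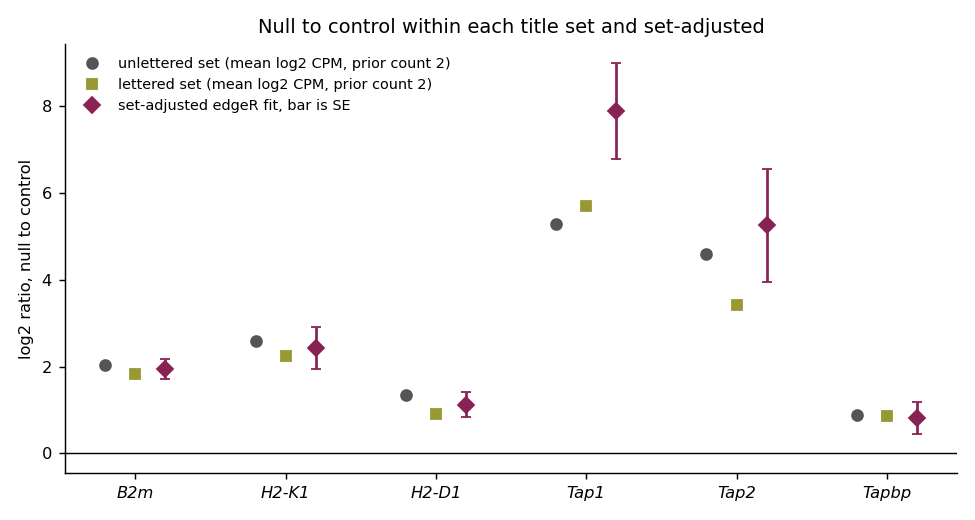
Log2 ratio of null to control for the 6 tested members, as the difference of mean log2 CPM (prior count 2) in the unlettered set (circles) and the lettered set (squares), and as the set-adjusted edgeR estimate with its SE (diamonds). All lie above 0, from 0.82 for Tapbp to 7.88 for Tap1 set-adjusted.

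Per kilobase of exon (GENCODE M21 basic annotation), B2m was the highest member in every library, at 29.1, 27.8 and 14.5 CPM per kilobase among the controls and 117.2, 44.7 and 59.4 among the null libraries. The heavy chains stood at 1.09 to 9.07 in controls and 7.37 to 17.2 in null cells. Tapbp stood at 2.65 to 6.34 in controls and 7.28 to 7.56 in null cells, above H2-K1 in each control and below it in each null library. Tap1 reached 1.504 to 4.12 and Tap2 0.571 to 1.91 in null cells. On the same scale Psmb5, the standard catalytic subunit that Psmb8 replaces in the immunoproteasome, was at 172.3 to 189.1 in controls and 192.9 to 240.2 in null cells. Psmb8 itself was at most 0.317. Psmb6, which Psmb9 replaces, was at 419.8 to 598.9 in controls and 327.3 to 635.0 in null cells, beside at most 1.12 for Psmb9.

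The other genes of the pathway were counted in 8 lists, of which 95 genes had a row and 49 were tested. The third inducible subunit, Psmb10, was present at 16.3, 28.2 and 20.6 CPM in controls and 19.9, 14.0 and 14.8 in null cells and did not pass (adjusted p = 0.529). Of the 4 immunoproteasome and activator genes, 2 rose and 0 fell set-adjusted, against 8.65% and 4.16% of all tested genes, namely Psme1 and Psme2, which encode the PA28 activator that opens the proteasome. Psme1 was at 49.3, 57.6 and 46.9 CPM among the controls and at 106.4, 94.6 and 64.0 among the null libraries (log2 ratio 0.87, SE 0.21, adjusted p = 0.0188, edgeR). Psme2 was at 68.8, 63.5 and 76.9 CPM in controls and 122.1, 114.6 and 88.7 in null cells (ratio on the log2 scale 0.64, SE 0.19, adjusted p = 0.0450). The groups did not overlap in either gene, as for 14.9% of all tested genes with every null above every control, and neither gene passed with group alone (adjusted p = 0.233 and 0.257). Of the standard subunits Psmb5, Psmb6 and Psmb7, 0 passed by edgeR, at unadjusted p under 0.05, or by DESeq2 (Psmb5 log2 ratio 0.28, adjusted p = 0.260; Psmb6 -0.028, adjusted p = 0.936).

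Of 10 genes of general peptide loading and trimming, all tested, 0 passed by edgeR, at unadjusted p under 0.05, or by DESeq2. Their median log2 ratio was 0.055. The chaperone Calr was at 200.5, 189.2 and 187.1 CPM in controls and 216.6, 232.1 and 251.6 in null cells (ratio on the log2 scale 0.26, SE 0.15, adjusted p = 0.2998). The 2 with the smallest p were Lnpep, an aminopeptidase (log2 ratio 1.29, SE 0.65, adjusted p = 0.222), and Tapbpl, a relative of tapasin (log2 ratio 1.26, SE 0.66, adjusted p = 0.241).

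Among 20 further class I heavy chains with a row, 3 were tested and 1 rose set-adjusted (2 at unadjusted p under 0.05 and 2 by DESeq2). H2-T23, which encodes the non-classical molecule Qa-1, was at 24.2 and 20.4 CPM in the unlettered controls and 57.2 in the null library, and at 7.72 in the lettered control and 25.2 and 23.2 in the null libraries. It rose set-adjusted (log2 ratio 1.501, SE 0.26, adjusted p = 0.00374), not with group alone (adjusted p = 0.447), and its groups overlapped across sets. H2-T24 had a ratio of 1.12 (SE 0.35, adjusted p = 0.0581) and H2-Q4 of -0.19 (SE 0.89, adjusted p = 0.921), and neither passed set-adjusted. Of 15 class I-like molecules with a row, 1 was tested, the Fc receptor chain Fcgrt, which did not pass (adjusted p = 0.293). None of 10 class II genes passed the filter; their summed level was 0.0533 to 0.372 CPM in controls and 1.29, 2.52 and 5.74 among the null libraries.

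Of 24 transcription factors that act on class I genes, 20 were tested, and 2 rose and 0 fell set-adjusted, a share near the 8.65% of all tested genes that rose (6 higher and 1 lower at unadjusted p under 0.05; 3 and 1 by DESeq2). Nlrc5, the transactivator of class I genes, had 0, 1 and 1 reads among the controls and 47, 35 and 12 among the null libraries. Its pooled ratio was 39.5 with a 95% counting interval of 10.6 to 331 (adjusted p = 0.0342 set-adjusted and 0.105 with group alone, edgeR), and it passed the filter through the null libraries alone. Irf9, the DNA-binding part of the complex formed after type I interferon, was at 5.93, 11.1 and 6.93 CPM in controls and 23.02, 16.6 and 14.1 in null cells (ratio on the log2 scale 1.28, SE 0.37, adjusted p = 0.0438; group alone, 0.245). Irf1 had 1 read in each control and 2, 1 and 28 among the null libraries and was not tested. Nfkb1, also not tested, had 0, 0 and 1 reads in the controls and 65, 47 and 7 in the null libraries. Its pooled ratio was 100, with a 95% counting interval of 17.6 to 3985 that covers counting error only. The other untested factors were Irf8, with 3 control and 15 null reads, and Ciita, with 3 and 2. Of 9 interferon receptors, kinases and inhibitors, 8 were tested and 1 fell set-adjusted. That gene, the kinase Jak2, was at 43.4 and 36.9 CPM in the unlettered controls and 19.6 in the null library, and at 57.9 in the lettered control and 40.6 and 28.3 in the null libraries (log2 ratio -0.89, SE 0.25, adjusted p = 0.0372; group alone, 0.460). Lower genes made up 4.16% of all tested genes set-adjusted. None of these 6 called genes passed without null replicate 1, where adjusted p was 0.103 for H2-T23, 0.262 for Psme1, 0.472 for Psme2, 0.366 for Nlrc5, 0.399 for Irf9 and 0.273 for Jak2.

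**Figure D4:**
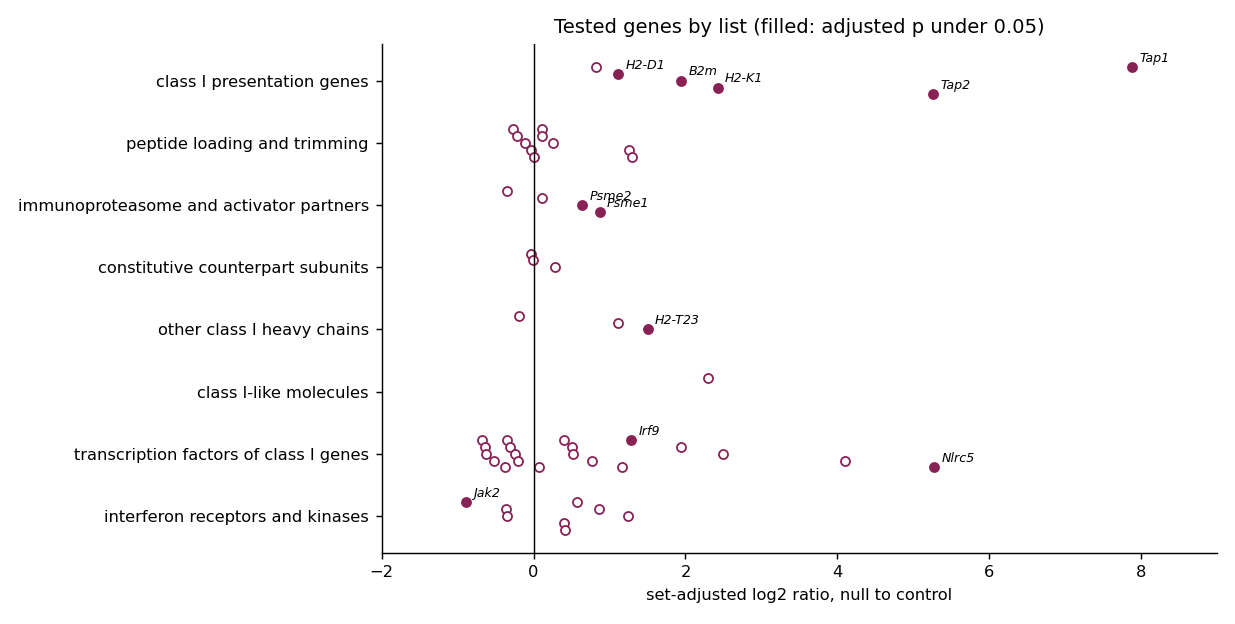
Set-adjusted log2 ratio of null to control for each tested gene of the pathway lists; filled points passed at adjusted p under 0.05 and carry their symbol. The points of the loading and trimming list and of the standard proteasome subunits are all open, and Tap1, Nlrc5 and Tap2 lie farthest to the right among the filled points, at 7.88, 5.27 and 5.26.

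Markers of other cells were also higher in the null libraries, which were sorted by the same gate. In bulk RNA, fewer cells of a type and less RNA per cell cannot be told apart. The 22 macrophage markers summed to 3.70, 2.50 and 14.2 CPM among the controls and to 69.9, 83.6 and 148.2 among the null libraries, and 5 of 12 tested rose set-adjusted and 2 with group alone. Csf1r, the receptor that defines the lineage, was at 0, 0 and 1.58 CPM in controls and 9.06, 6.57 and 18.0 in null cells. Emr1, which encodes F4/80, was at 0 in all controls and in null replicate 1 and at 0.359 and 2.58 CPM in null replicates 2 and 3. Other macrophage markers had few reads in both groups: Vcam1 1 control and 0 null reads, Mpeg1 3 and 5, Cd163 2 and 7, and Itgam 10 and 23. Of the 346 null reads of Lyz2, 319 were in null replicate 3. The 17 leukocyte markers summed to 13.0 to 14.0 CPM in controls and 90.6 to 146.0 in null cells, with 4 of 6 tested higher set-adjusted and 0 with group alone. Nkg7, Klrd1 and Elane of that list had no read in any library. The 17 endothelial markers summed to 4.53 to 17.3 and 33.0 to 47.0 CPM, also with 4 of 6 tested higher set-adjusted and 0 with group alone. The 4 were Pecam1, Tek, Eng and Plvap. Egfl7, which passed the filter in all controls, was not called (set-adjusted edgeR adjusted p = 0.116). Other markers of this list did not rise: Emcn and Cldn5 had no read in any library. Cdh5 had 1 read, in a null library, and Tie1 had 7 control reads and 1 null read. The 47 null reads of Kdr were all in null replicate 1. In each of these 3 lists 1 tested marker passed the filter in all controls: Cd68 (macrophage), Rac2 (leukocyte) and Egfl7. Cd68 was at 1.04, 1.60 and 1.30 CPM in controls and 10.2, 21.2 and 14.2 in null cells. Rac2 was at 12.4, 12.8 and 5.58 CPM and 82.9, 49.8 and 46.2. Both rose set-adjusted (edgeR adjusted p = 0.00211 and 3.91e-05, and 0.0330 and 0.0566 with group alone). The other tested markers passed the filter only with the null libraries counted in. These counts, beside 8.65% of all tested genes higher set-adjusted and 1.14% with group alone, are therefore a description. The 14 hepatic and stromal markers did not separate the groups, at 0.639 to 6.46 and 0.362 to 5.73 CPM. Such cells can carry class I transcripts of their own, and the part of these markers in the class I result was not tested.

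**Figure D5:**
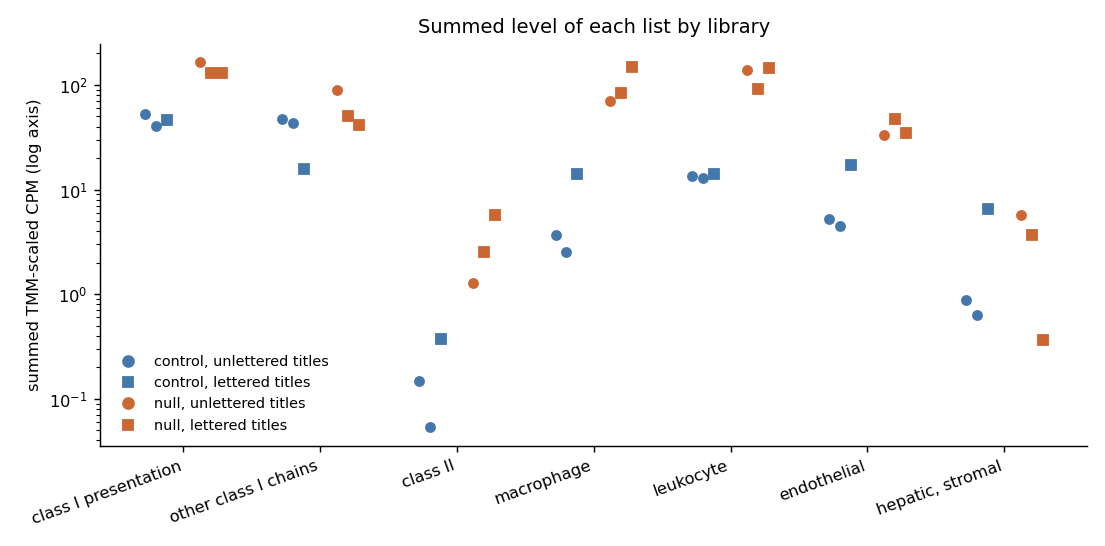
Summed TMM-scaled CPM of 7 gene lists in each library, on a log axis; colours are groups and shapes are title sets. The class I presentation genes (40.4 to 53.1 in controls, 129.9 to 164.7 in null cells) and the class II, macrophage, leukocyte and endothelial lists separate the groups. The other class I chains (15.8 to 47.3 in controls, 41.7 to 89.4 in null cells) and the hepatic and stromal list do not.

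The genes whose pattern over the 6 libraries lay closest to the mean of the 6 tested members were Btg1, Rhob, Tbcel, Cdkn1a and Ubap1, with Pearson r from 0.997 to 0.999. Over 6 libraries a high r is common: 706 of 10506 genes exceeded 0.9 and 191 exceeded 0.97. The members' log2 CPM values were centred and not scaled, so Tap1 and Tap2, with the widest differences, weighed most in their mean. Btg1, an inhibitor of proliferation, was at 42.2, 34.2 and 46.8 CPM in controls and 216.7, 292.7 and 216.1 in null cells. Rhob, a small GTPase, was at 0.148, 0.107 and 0.279 CPM and 4.27, 6.62 and 4.65. Cdkn1a, the cell cycle inhibitor p21, was at 11.7, 5.33 and 12.0 CPM and 729.4, 926.9 and 549.9. As in Tap1 and Tap2, null replicate 2 was the highest library of all 5.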

How the data were processed

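The deposited values are gene counts, which the authors made as 1 table per library without normalization. As the submitters' processing notes have it, FastQC, Trimmomatic (0.32), TopHat2 (2.1.0), HTSeq (0.6.1), edgeR and build mm9 were used; options and strand setting are not stated in these sources. Date conversion had altered 25 gene symbols of the unlettered libraries, and these were mapped back. Summary lines there (no feature 42.9%, 7.72% and 6.07%, not unique 24.1%, 22.5% and 32.4%, ambiguous 0.657%, 2.17% and 2.35% of control replicates 1 and 2 and null replicate 1) stayed out of library sizes.

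The tests used edgeR 4.0.16 under R 4.3.3: filterByExpr (10512 genes kept, about 0.550 CPM in at least 3 libraries), TMM scaling, glmQLFit with robust=TRUE and glmQLFTest, 2-sided, Benjamini-Hochberg over all tested genes at 0.05. The model held group and title set (3 residual degrees of freedom) or group alone (4). The test was checked on simulated counts. CPM is TMM-scaled. Floors are 3 counts over the control group, and 3 counts equal 0.140 to 0.387 CPM per library. Intervals are exact binomial at 95%. Whether replicates are separate embryos is not labelled; the p-values cover the spread among these libraries, possibly technical. No pair of same-group libraries was a duplicate (chi-square per degree of freedom 23.0 to 402.3).

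The members and lists were chosen with earlier results of these data known. All members are named; of each other list, every gene called set-adjusted, or else the 2 with the smallest p; and the 5 genes with the highest correlation with the members' mean. Calr, Psmb10, Arhgdib, the single marker genes, Beta-s, H2-T24, H2-Q4, Irf1, Nfkb1, Irf8 and Ciita were named for their roles or to complete a list, after their values were seen. Alternatives were group alone, a further term for Y-linked transcripts, DESeq2 1.42.0 and its size factors, leaving out globin genes, no filter, and leaving out each library.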

Additional observations from a re-analysis of the deposited data

How the results depend on the processing

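None of the settings run turned the direction of a tested member, and the class I members that fell numbered 0 in each. With group alone, 120 genes were higher and 1 lower, 1 member was higher (Tap1), and 0 other pathway genes passed in either direction by edgeR (7 higher and 1 lower at unadjusted p under 0.05). With title set and Y-linked transcripts as terms, 161 genes were higher and 62 lower, 1 member was higher (B2m, adjusted p = 0.0328), and 0 other pathway genes passed (6 higher and 4 lower at unadjusted p under 0.05). Without a filter 723 genes were lower, and the interaction passed for 52. DESeq2 gave 882 lower genes and 2 lower pathway genes, 1 more than the main test. Leaving out 1 library gave 162 to 869 higher and 40 to 734 lower genes, 1 to 4 higher members, and 0 to 5 higher and 0 to 1 lower pathway genes, with the lowest counts of higher genes and members without null replicate 1. That fit leaves the unlettered set with no null library, and the one without control replicate 3 leaves the lettered set with no control. Of the pathway calls, Irf9 passed in 0 of the 6 fits with a library left out, Psme2 and Nlrc5 passed in 1 each, Psme1 and Jak2 in 2 and H2-T23 in 5. No paired analysis was possible because the labels give the libraries no shared replicate numbers. Depth limits what can be said of Psmb8 and Psmb9: a control group floor of 3 reads is 0.0638 CPM.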
